A study of Mus musculus with 12 samples.

Results

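The genes described here are 9 transcription factors of the liver: Hnf4a, Foxa1, Foxa2, Foxa3, Onecut1, Onecut2, Prox1, Nr5a2 and Gata4. They were chosen by symbol, and each was found once among the 55450 genes of the deposited tables. RNA-Seq was run on primary hepatocytes of the mouse in 4 groups, with 3 libraries per group and 12 libraries altogether. WT were hepatocytes of Cebpa fl/fl mice, in which the gene of the transcription factor CEBPA is flanked by loxP sites, and KO were Cebpa ΔAlb hepatocytes, in which albumin-driven Cre recombinase deletes it, so the deletion is confined to cells that use the albumin promoter. GFP were hepatocytes given Ad-GFP, an adenovirus carrying green fluorescent protein, and OE were hepatocytes given Ad-m-Cebpa, an adenovirus carrying mouse Cebpa. WT and KO shared the floxed gene, and GFP and OE shared exposure to an adenovirus. The labels do not give the genotype of the mice behind GFP and OE. The labels do not give the age of the animals for these libraries, the length of the adenovirus exposure, or whether the replicates came from separate mice, so the p values may measure only the spread between preparations.

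Hepatocyte identity rests on a small group of DNA-binding proteins that act on each other's genes and share many enhancers. HNF4A is a nuclear receptor that drives genes of lipid transport, clotting and drug metabolism. FOXA1, FOXA2 and FOXA3 are forkhead proteins able to bind DNA within compacted chromatin. ONECUT1 (HNF6) and ONECUT2 are cut-homeodomain proteins of liver and bile duct development, PROX1 is a homeodomain protein that binds and restrains HNF4A and NR5A2, NR5A2 (LRH-1) is an orphan nuclear receptor of bile acid and cholesterol metabolism, and GATA4 is a zinc finger protein of early liver and sinusoidal endothelium. CEBPA, the factor manipulated here, belongs to the same network.

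Cebpa itself matched the labels within each experiment, lower in KO than in WT and higher in OE than in GFP. Its level, given here as counts per 1000000 counts after TMM scaling (CPM), was 486, 365 and 457 CPM in WT, 1.51, 0.393 and 0.261 CPM in KO, 30.4, 32.2 and 34.4 CPM in GFP and 8531, 8686 and 8977 CPM in OE. Library totals ran from 20160081 to 23304230 expected counts. The 10 most abundant genes took 19.1 to 23.3% of the counts in WT and KO but 5.07 to 8.03% in GFP and OE, so levels set across the 2 experiments depend on the scaling. The hepatocyte marker Alb, which encodes albumin, was present throughout, at 114055 to 120630 CPM in WT, 142966 to 161831 CPM in KO, 10924 to 11464 CPM in GFP and 4710 to 4998 CPM in OE. Several defining markers of other liver cells were low in all groups: Krt19 and Krt7 of bile duct cells reached at most 2.27 and 0.658 CPM, Pecam1 of endothelium 4.53 CPM, Lrat of stellate cells 1.30 CPM, and Adgre1 and Clec4f of Kupffer cells 4.16 and 13.6 CPM. Other genes of the same marker lists were not low. Among bile duct genes Spp1 was at 515 to 684 CPM and Sox9 at 40.4 to 82.9 CPM in KO, and Slc4a2 was at 38.6 to 79.0 CPM over all libraries. The stellate gene Reln was at 16.5 to 24.5 CPM in KO, and the macrophage gene Cd68 at 65.6 to 87.3 CPM in GFP and OE. In bulk RNA, fewer cells of a type and less RNA per cell cannot be told apart.

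The RefSeq promoter table (build GRCm38.p6, the assembly behind mm10) held 12 windows, each from 250 bases before to 50 after a start, for 7 of the 9 genes. Gata4 and Onecut2 had no entry. Short motifs were searched on both strands: TTNNGCAA for C/EBP proteins, TGTTTAC for FOXA, CAAAGNNCA for HNF4, ATTGAT for ONECUT, CAAGGTCA for NR5A2 and AGATAA for the GATA family. The stretches printed next are those in which the promoter of a factor held the letters of CEBPA, of another factor or of its own family, without those of Foxa2. They are written 5′ to 3′ on the gene's strand, with the motif letters in capitals.

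Hnf4a, chr2:163506778-163506810, plus strand, with ONECUT and then GATA letters: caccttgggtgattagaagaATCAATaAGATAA

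Foxa1, chr12:57546226-57546272, minus strand, with FOXA letters: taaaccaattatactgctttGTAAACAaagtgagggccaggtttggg

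Nr5a2, chr1:136953846-136953880, minus strand, before an internal start, with C/EBP letters: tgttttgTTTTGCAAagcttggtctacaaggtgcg

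Nr5a2, chr1:136960623-136960685, minus strand, before the outer start, with a pair of GATA letters: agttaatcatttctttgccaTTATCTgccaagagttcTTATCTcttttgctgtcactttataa

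In Hnf4a the ONECUT letters lay 59 to 54 bases and the GATA letters 52 to 47 bases before the RefSeq start, with 1 base between them. The last 3 bases of that stretch lie in the exon of a longer GENCODE transcript. The C/EBP letters were found in 1 of the 12 windows, that of the internal Nr5a2 start, and in 10.8% of all 32851 windows. FOXA letters were found in 1 (3.65% of all windows), HNF4 letters in 1 (6.36%), ONECUT letters in 2 (7.54%), GATA letters in 3 (11.2%) and NR5A2 letters in 0 (1.56%). The ONECUT letters overlapped none of the GATA letters. A match is a description of the letters in these windows and not a binding site.

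Hnf4a was the most abundant of the 9 genes in WT, KO and GFP, and only the fifth in OE. Levels of different genes were compared on TPM, transcripts per 1000000 transcripts, which is scaled for length. In WT its mean was 227 ± 40.8 TPM (SD, n = 3), 60.6% of the TPM of the 9 genes together. Foxa3 (44.1 ± 9.82 TPM) and Prox1 (29.8 ± 7.37 TPM) followed, and Gata4 (5.95 ± 1.78 TPM) and Foxa1 (7.04 ± 1.03 TPM) were lowest. KO had the same first 4 genes in the same order, led by Hnf4a at 250 ± 34.1 TPM or 60.4% of the sum.

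The order was different in the adenovirus experiment. In GFP, Hnf4a was at 184 ± 1.99 TPM and made up 57.5% of the sum, and Foxa2 came next at 40.6 ± 1.00 TPM. In OE, Gata4 led at 78.4 ± 4.31 TPM (22.8%), followed by Prox1 at 65.6 ± 2.02, Foxa2 at 56.0 ± 0.804, Foxa1 at 46.9 ± 1.68 and Hnf4a at 41.9 ± 1.65 TPM (12.2%). The sum over the 9 genes differed much less than its make-up, at 317 to 321 TPM in the GFP libraries and 338 to 353 TPM in the OE libraries. The direction of that difference depended on the scale, since in TMM-scaled CPM the sum was 478 to 483 in GFP and 436 to 442 in OE. Gata4, the lowest of the 9 in WT, was the highest in OE.

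**Figure D1:**
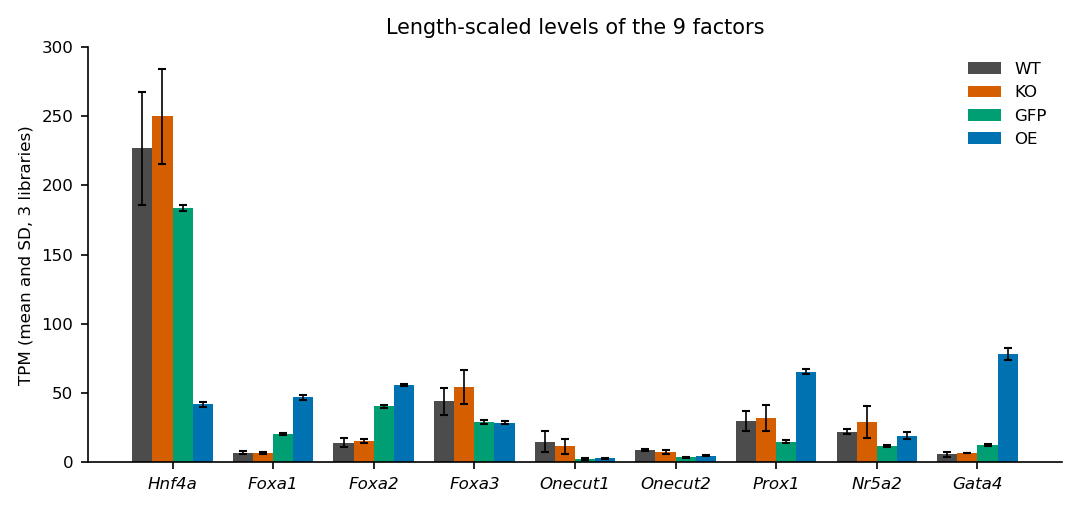
Length-scaled level (TPM, linear axis from 0) of the 9 factors in WT, KO, GFP and OE, with bars for the mean and lines for the SD of 3 libraries. Hnf4a stood above the others in WT, KO and GFP (227, 250 and 184 TPM) and below Gata4, Prox1, Foxa2 and Foxa1 in OE (41.9 TPM).

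The comparison of KO with WT asked whether loss of CEBPA in hepatocytes went with a change of its partner factors. None of the 9 genes passed the test. edgeR's quasi-likelihood test called 0 of 9 at a Benjamini-Hochberg adjusted p under 0.05, with adjusted p values from 0.487 to 0.991, against 203 of 11846 genes tested (1.71%). It also gave 0 of 9 at an unadjusted p under 0.05, and DESeq2 and limma called 0. The groups overlapped for all 9 genes, and they did not overlap for 19.8% of all genes tested. With shares this low over all genes, counts of 0 among 9 do not set these factors apart. The median log2 difference of the 9 was 0.19, and that of all genes was 0.01.

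Hnf4a (ENSMUSG00000017950.16, chr2:163506808-163572910, plus strand, mm10) was at 986, 999 and 1286 CPM over the 3 libraries of WT and 1432, 1120 and 1134 CPM over those of KO. Each group had 1 library above the other 2, and the ranges overlapped. The log2 difference was 0.19 ± 0.16 (SE, adjusted p = 0.633 by edgeR), and its 95% interval ran from -0.19 to 0.56, that is from 0.877-fold to 1.48-fold.

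The 3 forkhead genes were likewise within the spread of the replicates. Foxa1 (ENSMUSG00000035451.7, chr12:57540628-57546916, minus strand) was at 27.1, 21.3 and 22.4 CPM over the 3 libraries of WT and 22.6, 27.03 and 20.7 CPM over those of KO, a log2 difference of 0.01 with a 95% interval of -0.36 to 0.37. Foxa2 (ENSMUSG00000037025.11, chr2:148042877-148046969, minus strand) was at 33.9, 24 and 29.6 CPM over the 3 libraries of WT and 37.4, 31.4 and 32.5 CPM over those of KO, a log2 difference of 0.22 with an interval of -0.13 to 0.57. Foxa3 (ENSMUSG00000040891.6, chr7:19013284-19023538, minus strand) was at 87.6, 80.5 and 115 CPM over the 3 libraries of WT and 149, 115 and 93.6 CPM over those of KO, a log2 difference of 0.35 with an interval of -0.14 to 0.84. For each of the 3 forkhead genes the lowest KO library lay below the highest WT library.

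The Onecut genes were the ones with a negative difference. Onecut1 (ENSMUSG00000043013.10, chr9:74861921-74891781, plus strand) was the most uneven of the 9, at 75.3, 22.4 and 65.9 CPM over the 3 libraries of WT and 30.9, 36.0 and 65.1 CPM over those of KO. Its log2 difference was -0.30 ± 0.46 with a 95% interval of -1.39 to 0.79, which includes a fall of more than 2-fold. Onecut2 (ENSMUSG00000045991.19, chr18:64340020-64400987, plus strand) was at 172, 173 and 151 CPM over the 3 libraries of WT and 167, 149 and 115 CPM over those of KO, a log2 difference of -0.19 with an interval of -0.55 to 0.18. The KO library lowest in Onecut2 was the one highest in Onecut1.

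Prox1 (ENSMUSG00000010175.13, chr1:190118035-190170714, minus strand) was at 206, 349 and 221 CPM over the 3 libraries of WT and 370, 219 and 232 CPM over those of KO. Here too 1 library of each group stood above the other 2, and the log2 difference was 0.10 with a 95% interval of -0.53 to 0.73. Gata4 (ENSMUSG00000021944.15, chr14:63198922-63271692, minus strand) was at 25.7, 16.7 and 15.2 CPM over the 3 libraries of WT and 20.5, 22.8 and 22.3 CPM over those of KO, a log2 difference of 0.20 with an interval of -0.28 to 0.69. WT1 was above all KO libraries and the other 2 WT libraries were below them.

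Nr5a2 (ENSMUSG00000026398.14, chr1:136842571-136960448, minus strand) was the gene that 1 library decided. It was at 99.9, 125 and 103 CPM over the 3 libraries of WT and 176, 174 and 78.4 CPM over those of KO. Replicates 1 and 2 of KO were above all WT libraries and replicate 3 was below all of them. The log2 difference was 0.41 ± 0.30 (adjusted p = 0.582), and without KO replicate 3 it was 0.70 (adjusted p = 0.0397). That omission also raised the calls among all genes from 203 to 396. KO replicate 3 stood below replicates 1 and 2 in some markers of other cells, picked here from longer lists. Clec4f was at 4.10 against 13.6 and 12.02 CPM, Lyve1 at 1.63 against 5.83 and 5.50 CPM and Pecam1 at 0.912 against 2.802 and 4.48 CPM. Other markers went differently. Replicate 3 was the highest in Lrat (1.30 against 0.909 and 1.10 CPM) and Slc4a2 (52.5 against 52.1 and 45.3 CPM). It lay between the other replicates in Spp1 (574 against 515 and 684 CPM) and Sox9 (45.5 against 40.4 and 82.9 CPM). The part of other cells in the Nr5a2 difference was not tested.

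**Figure D2:**
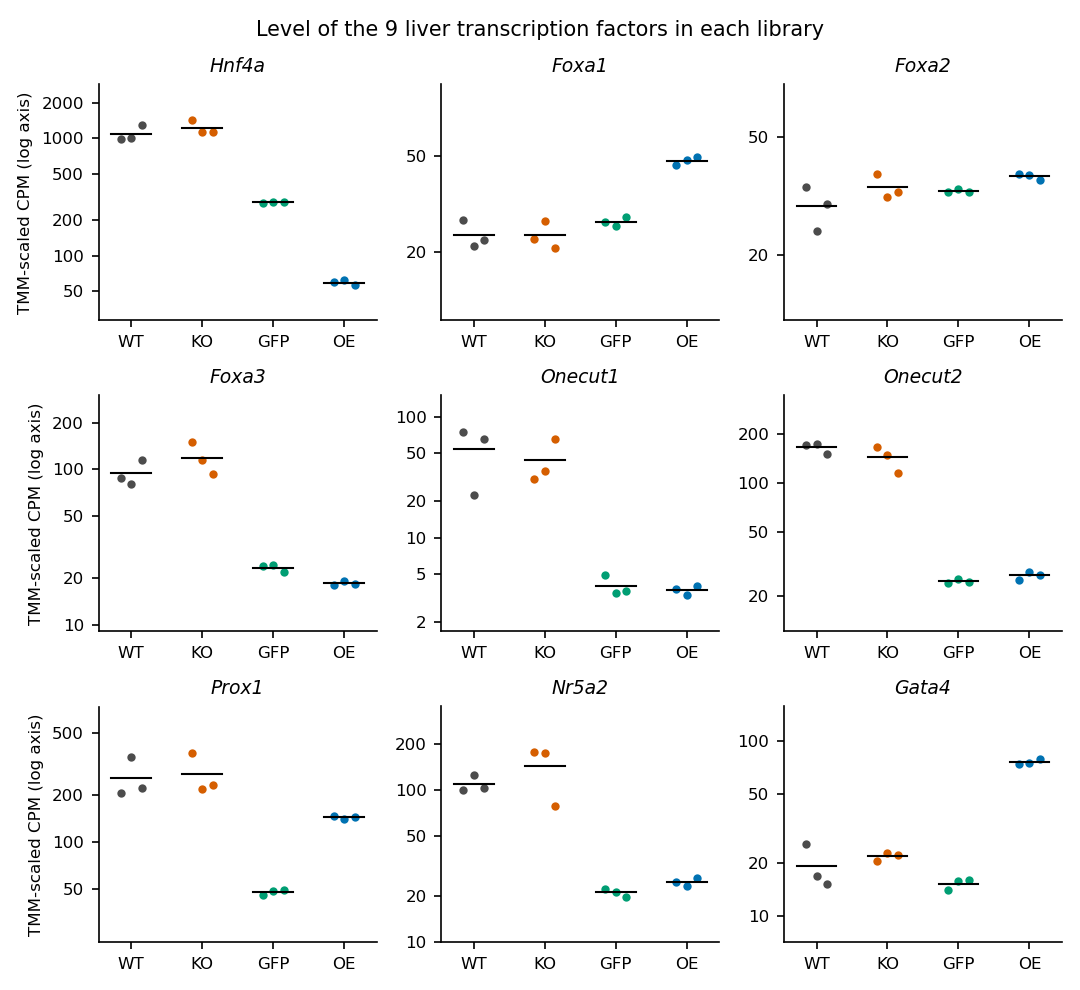
Level of each of the 9 factors in each library (TMM-scaled CPM, log axis, 1 panel per gene), with points for libraries and lines for the mean of the 3 libraries of a group. WT and KO overlapped for all 9 genes. In OE, Gata4 (73.9 to 78.8 CPM) lay above GFP (14.0 to 16.0 CPM), and Hnf4a (56.1 to 61.7 CPM) lay below GFP (283 to 285 CPM).

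The comparison of OE with GFP asked what forced expression of CEBPA went with. Of the 9 genes, 7 were called, 5 higher and 2 lower in OE. Since 86.6% of the 14889 genes tested were called, 43.9% higher and 42.7% lower, 7 of 9 was a share close to that of all genes and is no result about these factors. The groups did not overlap for 7 of the 9 genes and for 86.9% of all genes. Counting calls above 2-fold, the 9 genes gave 3 (Gata4, Prox1 and Hnf4a) and all genes 42.0%. The biological coefficient of variation was 4.04% in GFP and OE and 20.4% in KO and WT, so much smaller changes passed the test in the adenovirus experiment. The sizes and directions below are therefore given ahead of the calls.

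Hnf4a fell about 5-fold. It was at 283, 285 and 285 CPM in GFP and 59.1, 61.7 and 56.1 CPM in OE, with no overlap and little spread within either group. The log2 fold change was -2.28 ± 0.04 (SE, adjusted p = 2.86e-16), a 4.86-fold difference, and it ranged from -2.30 to -2.11 over 15 alternatives. In TPM the levels were 182 to 186 in GFP and 40.7 to 43.8 in OE.

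Gata4 rose by about the same factor. It was at 14.0, 15.7 and 16.0 CPM in GFP and 73.9, 75.1 and 78.8 CPM in OE, a log2 fold change of 2.30 ± 0.05 (adjusted p = 6.84e-15) or 4.94-fold. Prox1, which represses HNF4A and NR5A2 activity in the liver, rose 3.00-fold, from 45.5, 48.3 and 49.6 CPM in GFP to 147, 141 and 146 CPM in OE (log2 fold change 1.58 ± 0.03, adjusted p = 8.30e-15). Both genes had every OE library at least 2 times above every GFP library. Over the alternatives Gata4 ranged from 2.24 to 2.63 and Prox1 from 1.54 to 2.14 on the log2 scale.

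The 3 forkhead genes took different directions. Foxa1 rose from 26.7, 25.6 and 27.9 CPM in GFP to 45.9, 48.3 and 49.9 CPM in OE (log2 fold change 0.83 ± 0.05, adjusted p = 4.06e-10). Foxa2 rose by a small amount, from 32.7, 33.4 and 32.5 in GFP to 37.6, 37.1 and 35.7 CPM in OE (log2 fold change 0.15 ± 0.04, adjusted p = 0.00243). Foxa3 fell from 23.9, 24.3 and 21.8 in GFP to 18.2, 19.2 and 18.3 CPM in OE (log2 fold change -0.34 ± 0.06, adjusted p = 5.15e-05). Foxa1 kept its call under all 15 alternatives. The fall of Foxa3 depended on the scaling. On log2(TPM + 1) by limma its difference was -0.02 with no call, where the median of all genes was 0.27 and 63.4% of calls were higher in OE, against 50.7% under TMM.

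Nr5a2 and the Onecut genes had small differences under TMM. Nr5a2 was at 22.2, 21.5 and 19.9 CPM in GFP and 24.9, 23.2 and 26.2 CPM in OE, a rise of 0.22 ± 0.06 on the log2 scale (adjusted p = 0.00331). In TPM it was at 10.96 to 12.7 in GFP and 16.8 to 21.7 in OE, and over the alternatives its log2 difference reached 0.68. Onecut1 was the lowest of the 9 genes in both groups, at 4.91, 3.47 and 3.61 CPM in GFP and 3.79, 3.34 and 3.98 CPM in OE. Its log2 difference of -0.12 (adjusted p = 0.445) had a 95% interval of -0.43 to 0.19. Onecut2 was at 24.3, 25.7 and 24.3 CPM in GFP and 25.4, 28.1 and 27.2 CPM in OE, with a log2 difference of 0.11 (adjusted p = 0.0683) and an interval of -0.01 to 0.22. Both intervals exclude a 2-fold change in either direction. Onecut2 was called in 6 of 15 alternatives. These were DESeq2-type size factors in edgeR (0.13), the stricter filter (0.15), omission of OE replicate 1 (0.16, adjusted p = 0.0104), library totals (0.25, adjusted p = 0.00063) and limma on log2(TPM + 1) and log2(TPM + 0.1) (0.34 and 0.42). The median of all genes was 0.15 on library totals and 0.27 on log2(TPM + 1). In the fit of all 12 libraries Foxa2, Foxa3 and Nr5a2 lost their calls, leaving 4 of 9.

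**Figure D3:**
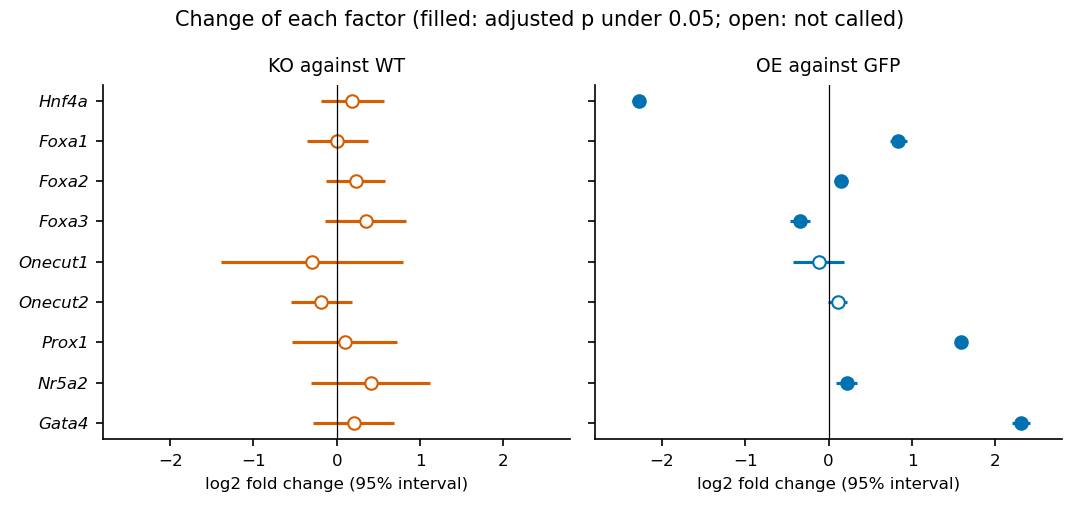
Log2 fold change of each factor with its 95% interval in KO against WT and in OE against GFP (filled circles were called, open circles were not). All 9 intervals cross 0 in KO against WT, while in OE against GFP Hnf4a sits at -2.28, Prox1 at 1.58 and Gata4 at 2.30.

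The deposited tables also give, for each gene and library, an RSEM length averaged over its transcripts by their estimated abundance. For Hnf4a this length was 4318 to 4359 bases in WT and KO, 3750 to 3788 bases in GFP and 4194 to 4242 bases in OE. The annotated Hnf4a transcripts measure 4356, 4362, 659, 692 and 431 bases, and a lower value means more weight on the short ones. For Prox1 the length was 7374 to 7746 bases in WT, KO and GFP and 6460 to 6549 bases in OE, where the transcripts measure 7913, 3285 and 3144 bases. For Nr5a2 it was 4198 to 4467 bases in WT, KO and GFP and 3699 to 4153 bases in OE. These 3 genes did not overlap in length between OE and GFP, and Foxa1, Foxa2, Onecut1 and Gata4 overlapped. Among all genes tested whose length varied over these 6 libraries, 29.6% did not overlap, so the lengths are given as a description with no test. Foxa3 and Onecut2 have 1 transcript each, so their length was fixed.

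The effect of OE against GFP less that of KO against WT was tested as an interaction over all 12 libraries. It was called for 5 of the 9 genes, a share close to the 54.1% of all 15326 genes tested, so the count is no result about these factors and the sizes are given. The difference was -2.44 ± 0.17 for Hnf4a (adjusted p = 3.23e-07), 2.12 ± 0.22 for Gata4 (adjusted p = 6.92e-06), 1.51 ± 0.30 for Prox1 (adjusted p = 0.00115), 0.86 ± 0.15 for Foxa1 (adjusted p = 0.000561) and -0.66 ± 0.23 for Foxa3 (adjusted p = 0.0273). It was not called for Foxa2 (-0.05), Onecut1 (0.20), Onecut2 (0.32) and Nr5a2 (-0.16). The call of Foxa3 held in 12 of 20 alternatives, and those of the other 4 in all 20. Foxa3 lost it without WT replicate 1, WT replicate 2, KO replicate 1 or GFP replicate 2 (-0.61, -0.56, -0.48 and -0.64). Its call also depended on the scaling, being lost on library totals (-0.49) and by limma on log2(TPM + 1) and log2(TPM + 0.1) (-0.31 and -0.32). Nr5a2 was called without KO replicate 3 (-0.46, adjusted p = 0.0121) and Onecut2 without KO replicate 1 (0.44, adjusted p = 0.0249). Onecut2 was also called on library totals (0.49) and by limma on log2(TPM + 1) and log2(TPM + 0.1) (0.56 and 0.66). Cebpa was added in OE and deleted in KO, so a gene that followed Cebpa both ways would also give a difference, as Cebpa itself did (17.3). The test therefore cannot tell such a gene from one that changed in the adenovirus experiment alone. This fit takes a single dispersion for a gene although the 2 experiments vary unequally.

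The control groups of the 2 experiments differed for most of these genes. They differ in the adenovirus and in anything else that set the experiments apart, which cannot be told apart, and the labels do not say whether the GFP cells carried the floxed gene. GFP and WT are also the controls of the comparisons above. Of the 9 genes, 6 were called and all 6 were lower in GFP, against 83.3% of 13760 genes called and 38.4% called lower, and the groups did not overlap for the same 6 genes, against 85.4% of all genes. A fall under TMM was also seen in most related lists described below. Called lower in GFP were 15 of 18 other liver factors tested, with 0 higher, and 12 of 12 hepatocyte genes. Of HNF4A targets 21 of 22 were lower and 1 higher, and of NR5A2 targets 9 of 9 were lower. Of FOXA targets 7 of 10 were lower and 2 higher, and of 17 co-regulators 6 were lower and 6 higher. Some of these counts depended on the scaling. On library totals, where 83.4% of the calls among all genes were higher, 9 of the other liver factors were lower and 5 higher. Of co-regulators 0 were lower and 14 higher on that scale, and of FOXA targets 6 were lower and 3 higher. Hepatocyte genes (12 lower), HNF4A targets (21 lower) and NR5A2 targets (8 lower) stayed mostly lower. Among the 9 factors Onecut1 had the largest difference, -3.78 ± 0.44 on the log2 scale, with 22.4 to 75.3 CPM in WT and 3.47 to 4.91 CPM in GFP. The log2 difference of Onecut2 was -2.75 ± 0.07, from 151 to 173 CPM in WT to 24.3 to 25.7 CPM in GFP. The log2 differences of Prox1, Nr5a2, Foxa3 and Hnf4a were -2.45, -2.38, -2.03 and -1.95. Foxa1 (0.17), Foxa2 (0.16) and Gata4 (-0.35) were not called. Without WT replicate 1 Foxa1 (0.27, adjusted p = 0.011) and Foxa2 (0.27, adjusted p = 0.0284) were called, and without WT replicate 3 Gata4 was (-0.49, adjusted p = 0.0296).

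These differences shift with the scaling, since a few genes hold many more of the counts in WT. Under TMM the median of all genes was 0.13 on the log2 scale, on library totals it was 1.36 and on log2(TPM + 1) it was 1.33. The share of calls that were higher in GFP was 53.9%, 83.4% and 85.8% in the same order. On library totals Foxa1 and Foxa2 were higher in GFP by 1.40 and 1.39 on the log2 scale, close to that median, and Gata4 turned to 0.89 higher. Hnf4a was at -0.72 on totals and at -0.29 on log2(TPM + 1), where it was not called. The Onecut genes, Prox1, Nr5a2 and Foxa3 were lower in GFP under all 3 scalings, by 0.56 to 3.78 on the log2 scale.

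**Figure D4:**
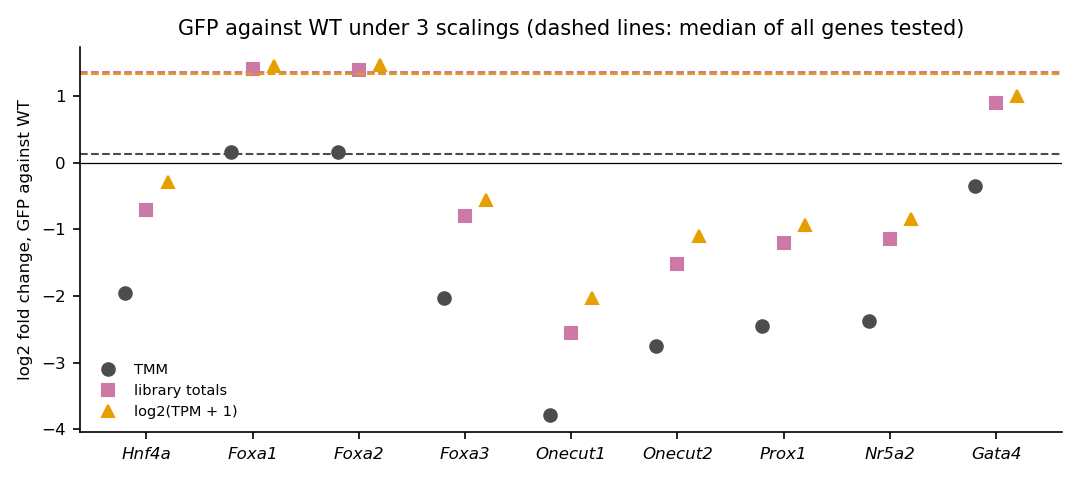
Log2 fold change of each factor in GFP against WT under TMM scaling (circles), library totals (squares) and log2(TPM + 1) (triangles), with dashed lines for the median of all genes tested under each. Foxa1 and Foxa2 sit near the median line under each scaling, and Onecut1 is the farthest below it (-3.78, -2.56 and -2.03).

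Set over the 4 groups, the order of levels in CPM was KO, WT, GFP and OE for Hnf4a and Foxa3, where KO and WT overlapped and the other neighbours did not. It was KO, WT, OE and GFP for Prox1 and Nr5a2, again with an overlap of KO and WT alone. Onecut1 and Onecut2 formed 2 pairs, WT with KO and GFP with OE, which overlapped within each pair and not between them. Foxa1 and Gata4 were high in OE, and WT, KO and GFP overlapped with their neighbours. Foxa2 was nearly level in CPM, from 29.2 on average in WT to 36.8 in OE, and each neighbouring pair overlapped.

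In TPM, which is not scaled by TMM, several of these orders were different. Foxa2 ran from 10.8 to 17.2 TPM over WT and from 14.4 to 17.4 TPM over KO, which overlapped. It lay higher, between 40.0 and 41.8 TPM, in the GFP libraries and higher again, between 55.1 and 56.6 TPM, in the OE libraries. Foxa1 and Gata4 were likewise highest in OE and next in GFP, with WT and KO the one pair of neighbours that overlapped. Prox1 was highest in OE, at 65.6 TPM on average against 31.9 in KO, 29.8 in WT and 14.9 in GFP. Nr5a2 kept its order, but WT and OE overlapped, and GFP and OE overlapped for Foxa3 and not for Onecut2. Hnf4a kept its order, with an overlap of KO and WT alone, but GFP lay much closer to WT. Its means were 227 TPM in WT and 184 TPM in GFP, against 1091 and 284 CPM.

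Antisense transcripts overlap 2 of the genes, and the sources do not say whether counting used the strand. Hnf4aos, antisense to Hnf4a, was at 2.803 to 5.69 CPM in WT and 3.22 to 4.82 CPM in KO. It had 1 count in GFP1 and 0 counts in the other GFP and OE libraries. Prox1os, antisense to Prox1, was at 3.10 to 4.46 CPM over WT and KO, 0.299 to 0.390 CPM in GFP and 0.053 to 0.114 CPM in OE. Both were far below their partners in all groups. Without strand, reads of a gene and of its antisense partner cannot be told apart.

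Other transcription factors of the liver were examined as a list of 20, of which 18 were tested. In KO against WT edgeR called 0 of 18, limma 0 and DESeq2 2, with 5 at an unadjusted p under 0.05. Those DESeq2 called were Tbx3 and Nr1i3. Among the lowest p values were those of Tbx3, a T-box factor of hepatoblasts and pericentral hepatocytes (41.9 CPM for WT against 14.3 CPM for KO, adjusted p = 0.142) and Nr1i3, the xenobiotic receptor CAR (500 and 218 CPM, adjusted p = 0.166). All 18 were called in OE against GFP, 9 higher and 9 lower, with a median of -0.05. Of all genes 43.9% were called higher and 42.7% lower in that comparison, shares that stand beside the counts of each list below as well, and the even split here is no result about the list. Creb3l3, a factor of fasting lipid metabolism, fell by 3.71 on the log2 scale, from 114 to 8.79 CPM. Atf5, a stress factor abundant in liver, fell by 2.26 and Esrra, a nuclear receptor of mitochondrial genes, fell by 1.76.

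Co-regulators, the proteins through which these factors act, were a list of 18 with 17 tested. edgeR, DESeq2 and limma called 0 of 17 in KO against WT, with 0 at an unadjusted p under 0.05. The lowest p values belonged to Ncoa1 (37.5 CPM for WT against 31.7 CPM for KO), Tle3 (18.5 and 11.2 CPM, called without KO replicate 2 at -1.27, adjusted p = 0.0446) and Med1 (41.6 and 47.7 CPM). After forced expression 12 rose and 5 fell with a median of 0.68, and on log2(TPM + 1), where 63.4% of the calls among all genes were higher, 13 rose and 3 fell. Tle1, a Groucho co-repressor that forkhead proteins bind, rose 7.90-fold, from 24.4 to 194 CPM. Crebbp, a histone acetyltransferase, rose 3.43-fold, and Smarca4, the ATPase of the SWI/SNF complex, fell by 1.10 on the log2 scale.

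Genes known as targets of HNF4A (22 genes) were mostly lower in OE. Against GFP, 20 of 22 fell and 1 rose, with a median of -1.38, where the median of all genes was 0.01. On library totals the counts were the same, 20 and 1, and on log2(TPM + 1) they were 19 and 1 of 20. Trf, which encodes transferrin, fell 4.74-fold from 7323 to 1556 CPM. F12, which encodes clotting factor XII, fell by 1.44 on the log2 scale, and Mttp, needed to load lipoproteins with lipid, fell 5.23-fold from 106 to 20.4 CPM. The gene that rose was Slc10a1, the bile acid transporter NTCP (log2 fold change 1.44). Its level was low in both groups, at 1.64 CPM in GFP and 4.49 CPM in OE, against 616 CPM in WT. G6pc, of glucose release, named after its value was seen, was the one not called (-0.68, adjusted p = 0.0609), at 0.632 CPM in GFP and 0.399 CPM in OE.

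In KO against WT the same list had 1 call, Slc10a1, which fell from 616 CPM in WT to 356 CPM in KO (log2 fold change -0.78 ± 0.11, adjusted p = 0.0221). That call was lost without WT replicate 1, 2 or 3 or KO replicate 1 or 2, with adjusted p values of 0.0622 to 0.116 and the difference between -0.80 and -0.71. Ces2a, a carboxylesterase, was at 404 and 266 CPM (adjusted p = 0.0626), and Apoc2, the cofactor of lipoprotein lipase, at 131 and 182 CPM (adjusted p = 0.0658). DESeq2 called 5 of 22, 1 higher and 4 lower. The median over the list was -0.08. No change of Hnf4a was detected in that comparison, and its 95% interval is given above.

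The 10 genes known as FOXA targets, which include Foxa1 itself, gave 0 calls of 9 tested in KO against WT, with 1 at an unadjusted p under 0.05. DESeq2 called 1 and limma 0. Alb, Cps1 of the urea cycle, and Igfbp1, a secreted binder of insulin-like growth factors, had the lowest p values (adjusted p = 0.300, 0.668 and 0.683). Against GFP, 6 fell and 3 rose in OE, with a median of -0.97, and the counts were the same on library totals and log2(TPM + 1). Igfbp1 fell 100-fold, from 661 to 6.64 CPM, Afp, the fetal albumin relative, fell 86.1-fold, from 166 to 1.94 CPM, and Alb fell 2.34-fold. In WT Igfbp1 was at 83.5 CPM and Afp at 0.482 CPM, both well below their GFP levels, and Alb was above its GFP level. Cps1 rose by 1.71 on the log2 scale, from 149 to 490 CPM.

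Of 10 genes known as NR5A2 targets, 9 were tested in KO against WT and 1 was called. Abcg8, 1 of the 2 subunits of the sterol exporter of the canalicular membrane, had a log2 fold change of -1.20 ± 0.21 (53.7 against 23.2 CPM, adjusted p = 0.0438). That call was lost without any 1 of the WT libraries or KO replicate 1 or 2 (adjusted p from 0.0758 to 0.144), with the difference between -1.35 and -0.98, and also under the stricter filter (adjusted p = 0.0638) and by limma on log2(TPM + 1) (adjusted p = 0.0901). Its partner Abcg5 was at 44.1 and 24 CPM (adjusted p = 0.0982). The median of the list was -0.67. With forced expression 4 of 8 fell and 2 rose, but on log2(TPM + 1) 2 of 7 fell and 3 rose. Apom, which carries sphingosine-1-phosphate, fell from 64.4 to 16.8 CPM. Scarb1, the high-density lipoprotein receptor, fell by 0.36 on the log2 scale under TMM and was not called on log2(TPM + 1), at -0.046.

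**Figure D5:**
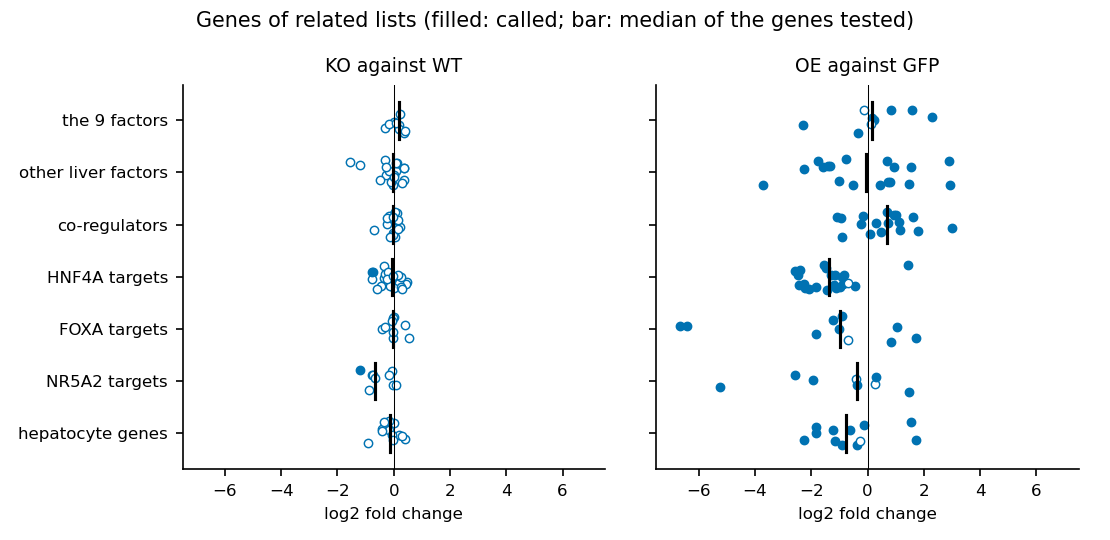
Log2 fold change of each tested gene of the 9 factors and 6 related lists in KO against WT and OE against GFP (filled circles were called, open circles were not, black bars are medians). In KO against WT 2 genes were filled among these lists, Slc10a1 and Abcg8, and in OE against GFP 20 of the 22 HNF4A targets lay below 0 and were called.

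The marker lists moved with the groups as well. Of 12 hepatocyte genes, edgeR called 0 in KO against WT, DESeq2 3 and limma 0 (3 at an unadjusted p under 0.05 in edgeR, the lowest p values being those of Hpd, Serpina1a and Alb). Without KO replicate 1 Hpd was called (-1.25, adjusted p = 0.0445). In OE 9 fell and 2 rose against GFP (7 and 3 on log2(TPM + 1)), among them Trf and Alb, which fell, and Tdo2, which rose 2.94-fold. Their summed level was 191044 to 202663 CPM in WT, 204969 to 260039 CPM in KO, 21983 to 22587 CPM in GFP and 8253 to 8741 CPM in OE. The Hnf4a level was ordered in the same way over GFP and OE. Whether the hepatocyte genes had a part in the Hnf4a difference was not tested.

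Of the 10 bile duct genes, 4 were tested in KO against WT and 2 rose, Spp1, which encodes osteopontin, from 12.7 to 591 CPM and Sox9, a bile duct transcription factor, from 14.1 to 56.3 CPM (Sox9 lost its call without WT replicate 1, 2 or 3, adjusted p from 0.111 to 0.145), while Krt19 and Krt7 stayed below 0.236 CPM in KO. The summed level was 96.3 to 109 CPM in WT and 645 to 844 CPM in KO, where most of it was Spp1 (515 to 684 CPM). Of 9 tested in OE against GFP 4 rose and 4 fell, among them Spp1 and Slc4a2, which fell, and the sums were 144 to 150 CPM in GFP and 80.9 to 85.4 CPM in OE. Their part in the factors' levels was not tested.

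The summed markers of stellate cells were higher in KO than in WT without overlap, and those of endothelium and macrophages overlapped. Summed levels were 37.1 to 63.6 CPM in WT and 40.9 to 89.4 CPM in KO for 12 endothelial genes, 8.82 to 18.9 and 25.5 to 37.7 CPM for 12 stellate genes, and 5.40 to 34.6 and 19.7 to 68.3 CPM for 12 macrophage genes. Reln, at 16.5 to 24.5 CPM, was the largest part of the stellate sum in KO. Of the genes tested, edgeR called 1 in KO against WT, the stellate gene Reln (6.89 CPM for WT against 21.5 CPM for KO, adjusted p = 0.0270), a call lost without WT replicate 1 or 2 or KO replicate 1 or 2 (adjusted p from 0.0745 to 0.135) and by limma on log2(TPM + 1) (adjusted p = 0.0651). Of 12 endothelial and 9 macrophage genes tested, edgeR called 0, with 1 and 2 at an unadjusted p under 0.05, DESeq2 called 1 and 0 and limma 0. Lyve1 was called without KO replicate 3 (2.44, adjusted p = 0.0391). The lowest p values after it were those of Hgf and Rgs5 for stellate cells, of Lyve1, Dnase1l3 and Clec4g for endothelium, and of Marco, Vsig4 and Csf1r for macrophages.

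Gata4 is also expressed in liver endothelium and stellate cells, so the same sums are given for the adenovirus experiment. They were 27.6 to 30.2 CPM in GFP and 36.2 to 38.7 CPM in OE for endothelium and 10.8 to 12.5 CPM and 32.4 to 33.5 CPM for stellate cells. For macrophages they were 79.2 to 88.0 and 67.4 to 75.7 CPM, nearly all of it Cd68, with Adgre1 and Clec4f at 0 in GFP. Of 11 endothelial genes tested, Dnase1l3 and Oit3 rose and 4 fell, namely Cdh5 (-0.74), Pecam1 (-0.67), Fcgr2b (-0.86) and Eng (-0.71), the last 3 named after their values were seen. Of 6 stellate genes tested 4 rose, among them Reln, Dcn and Col3a1, and none fell. Reln, at 3.02 to 4.78 CPM in GFP and 18.2 to 19.6 CPM in OE, was the largest part of the stellate sum in OE. Rgs5 (-0.48) and Col1a1 (0.06, named after its value was seen) were not called. Lrat was at most 0.189 CPM in GFP and 0.172 CPM in OE. Csf1r was at 0.188 CPM in GFP and 0.757 CPM in OE. The part of other cell types in the Gata4 difference was not tested.

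For each factor the 3 genes most like it were taken by Pearson's r of log2(CPM + 0.5) over the 12 libraries, among genes with a mean of at least 10 CPM. All r reflect mainly the distance between the 2 experiments and between GFP and OE, which the libraries of a group share. Hnf4a was closest to Klhl2 (r = 0.998), Slc26a1 (0.998) and Glyctk (0.997), and Foxa3 to Tcim (0.997), Sds (0.996) and Klhdc10 (0.994). Foxa1 was closest to Ubqln2 (0.991), Ap5b1 (0.982) and Mlxip (0.981), and Gata4 to Gca (0.991), Fam199x (0.988) and Cldnd1 (0.985). The genes most like Hnf4a and Foxa3 were lower in GFP and OE than in WT and KO, and those most like Foxa1 and Gata4 were highest in OE.

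Prox1 was closest to Chtop (0.987), Atoh8 (0.986) and Thrb (0.983), each lowest in GFP. Nr5a2 was closest to Bcr (0.988), C3 (0.988) and Hsph1 (0.987), Onecut1 to Asap3 (0.986), Tuba4a (0.982) and Gtpbp8 (0.981), and Onecut2 to Serpina6 (0.997), Mat1a (0.996) and Keap1 (0.996). Foxa2, which varied little in TMM-scaled CPM though not in TPM, had the weakest likeness, to Paf1 (0.867), Ankrd44 (0.823) and Carmil1 (0.812). Mat1a, which makes S-adenosylmethionine in adult liver, fell from 3862 CPM in WT to 41.8 CPM in GFP.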

How the data were processed

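RNA-Seq of 12 libraries was analysed from the deposited gene tables. Per the labels, the authors used a stranded poly(A) kit, Trimmomatic 0.36, STAR 2.5.1, Picard 1.84, RSEM 1.2.22 and DESeq2 on build mm10. The deposited RSEM expected counts are estimates without scaling for depth, and the deposited TPM is scaled for length and library. After rounding of the expected counts, filterByExpr set the genes tested (minimum count 10, minimum total 15), and these were scaled by TMM and tested in edgeR 4.0.16 with quasi-likelihood F tests and Benjamini-Hochberg adjustment over all genes tested (called under 0.05). KO against WT, OE against GFP and GFP against WT were each fitted on 6 libraries, and the interaction on 12. Levels are CPM with TMM factors from all 12 libraries. Alternatives were DESeq2 1.42.0, other scalings and filters, limma 3.58.1 on log2(TPM + 1) and log2(TPM + 0.1), all 12 libraries in a single fit, the replicate number as a block, and omission of single libraries. The pipeline was tested on simulated data with 200 changed genes. Since 86.6% of genes were called in OE against GFP and 83.3% in GFP against WT, that simulation cannot check the scaling in those comparisons. The 9 genes and all lists were chosen with earlier results of these data known. Named genes were the 9, the 3 of each other list with the lowest p in each of KO against WT and OE against GFP, and the 3 most like each factor, except for a few that are not reported here. Gene coordinates are from GENCODE M21 and promoters from RefSeq. Counts of reads are not independent molecules.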

Additional observations from a re-analysis of the deposited data

Results flagged for a closer look

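The effect of OE against GFP differed from that of KO against WT, by the interaction test over 12 libraries in edgeR, for 5 of the 9 factors, where 54.1% of all genes were called, so the count is no result about the factors. The difference of log2 fold changes was -2.44 for Hnf4a, 2.12 for Gata4, 1.51 for Prox1, 0.86 for Foxa1 and -0.66 for Foxa3. For each of the 5 genes the groups of 3 libraries did not overlap in OE against GFP, where 86.9% of all genes did not, and overlapped in KO against WT, where 19.8% of all genes did not overlap. Cebpa was added in OE and deleted in KO, so a difference between the effects is also what a gene following Cebpa both ways would give. The 2 experiments share no library, and their spread was unequal.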

How the results depend on the processing

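Genes called in KO against WT numbered 203, and 623 with DESeq2, 324 with no filter, 91 with a stricter filter, 112 and 103 with limma on log2(TPM + 1) and log2(TPM + 0.1), 1205 in the fit of all 12 libraries and 42 to 396 with 1 library left out. With a replicate block there were 87. Same-numbered libraries did not deviate together (correlations of -0.36 to 0.02 in KO and WT and -0.07 to 0.05 in GFP and OE), so the numbers were not taken as pairs. The block changed no call of the 9 factors in KO against WT, OE against GFP or GFP against WT, and in the interaction it removed Foxa3 (-0.65, adjusted p = 0.073) and added Onecut2 (0.33, adjusted p = 0.0448). In KO against WT it also removed the calls of Slc10a1 (-0.78, adjusted p = 0.116) and Reln (1.66, adjusted p = 0.120). Calls among the 9 in KO against WT ranged from 0 to 1 with 1 library left out, and in OE against GFP they were 4 in the fit of all 12 libraries. The cause of these shifts was not tested.

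Some log2 differences changed sign. In KO against WT Foxa1 was -0.051 on library totals, -0.0086 with no filter, -0.017 and -0.019 with limma and -0.012 with all 12 libraries. With 1 library left out, Foxa1 ran from -0.12 to 0.12, Onecut1 from -0.68 to 0.0035, Prox1 from -0.18 to 0.36 and Igfbp1 from -0.080 to 0.93. In OE against GFP Onecut1 was 0.022 on totals, 0.13 and 0.18 with limma and -0.22 to 0.048 with 1 library left out, and Cd68 was 0.070 and 0.071 with limma. In GFP against WT Gata4 was 0.89 on totals and 0.99 and 1.10 with limma. In the interaction Foxa2 was 0.12 on totals, 0.0037 with the stricter filter, 0.32 and 0.32 with limma and -0.17 to 0.068 with 1 library left out. Onecut1 there ran from -0.11 to 0.59, and Nr5a2 was 0.021 on totals, 0.34 and 0.37 with limma and -0.46 to 0.017 with 1 library left out.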
